A study of Rattus norvegicus with 8 samples.

Results

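The genes described are 34 rat genes of macrophages and other immune cells, matched to array probes by their RefSeq transcripts, out of 15154 genes named on the array. The list was chosen with earlier results of these data known, so its counts beside those of all genes are descriptions only. All 34 have a probe, and 29 of them passed the filter for testing, which kept a probe only where some group had it well above background on all of its arrays. They were measured in dissociated cells of dorsal root ganglia, which hold the cell bodies of sensory neurons and the glia and resident immune cells around them, from Wistar rats aged 0-5 days with male and female cells pooled. After 2-3 days in serum-free medium with the antimitotic agents 5-fluoro-2′-deoxyuridine and uridine, which every group received, a human protein was added for 5 days at a concentration of 100 ng/ml. It was the double mutant P61S/R100E (n = 3 arrays), the single mutant P61S (n = 3 arrays) or the wild type (n = 2 arrays). Cultures without the protein were not analysed here, so each difference is between forms of the protein. Nothing in the labels ties the replicates to separate cultures or animals, so p-values measure only the spread between these samples.

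Macrophages are the main resident immune cells of sensory ganglia, where they clear debris and dying cells and respond to nerve injury. Their survival depends on the receptor CSF1R, and their gene expression on the transcription factor PU.1, encoded by Spi1. Many of their surface receptors, TREM2 among them, have no signalling tail of their own and signal through the adaptors encoded by Tyrobp and Fcer1g, while the genes of C1q, CD68, lysozyme and cathepsin S belong to their clearance and lysosome functions.

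The promoters of Trem2, Laptm5 and Ptprc are shown because these 3 had the largest differences between P61S/R100E and wild type among members with a sequence in the RefSeq promoter table whose groups did not overlap. Each runs from 250 bases before to 50 bases after the gene's start, 5′ to 3′ on the gene's strand, in rat build GRCr8. Capitals mark GAGGAA or its reverse complement TTCCTC, the core letters of the PU box that PU.1 recognises.
Trem2, minus strand of chr9:20151730-20152029: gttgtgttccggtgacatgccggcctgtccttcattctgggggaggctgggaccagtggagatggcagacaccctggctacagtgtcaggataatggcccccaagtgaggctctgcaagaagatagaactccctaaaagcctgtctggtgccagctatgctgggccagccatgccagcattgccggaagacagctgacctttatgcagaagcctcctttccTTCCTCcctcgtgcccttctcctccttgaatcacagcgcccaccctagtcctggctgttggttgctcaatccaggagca
Laptm5, plus strand of chr5:148371630-148371929: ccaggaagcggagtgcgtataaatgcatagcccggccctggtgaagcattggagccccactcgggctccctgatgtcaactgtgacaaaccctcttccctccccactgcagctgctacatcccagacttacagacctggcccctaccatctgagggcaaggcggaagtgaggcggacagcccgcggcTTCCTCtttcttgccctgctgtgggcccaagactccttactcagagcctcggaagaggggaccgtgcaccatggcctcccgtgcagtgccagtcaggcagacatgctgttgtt
Ptprc, minus strand of chr13:52259697-52259996: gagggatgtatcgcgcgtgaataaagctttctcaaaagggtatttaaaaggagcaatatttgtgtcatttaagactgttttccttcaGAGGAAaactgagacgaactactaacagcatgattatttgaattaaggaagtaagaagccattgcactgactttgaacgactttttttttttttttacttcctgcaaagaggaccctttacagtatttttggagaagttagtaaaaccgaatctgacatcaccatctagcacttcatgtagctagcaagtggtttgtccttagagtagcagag
The marked letters begin at position -29 in Trem2, counting the base before the start as -1, at -63 in Laptm5 and at -163 in Ptprc. Of the 34 members, 25 had a promoter in the table, and 18 of these 25 (72.0%) held GAGGAA on either strand, against 27.6% of all 33469 promoters of the same length. The longer GAGGAAGT, which contains the shorter motif, was in 2 of 25 (8.00%), against 2.42% of all promoters. These letters were kept after other lengths of the motif had been looked at, and a match describes the sequence without showing a bound site. C1qc, Lgals3, Itgb2, Aif1, Spi1, Cd4, Fcgr2b, Tyrobp and Fcer1g had no entry.

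Every value below is the log2 of the array signal relative to the 75th percentile of the same array, from the brightest probe of the gene, and levels are compared only between arrays for the same probe. The 75th percentile signal ran from 3267 to 5269 over the 8 arrays, between 78.7% and 88.8% of spots were well above background, 0 spots were saturated, and the number of arrays limits the precision. Wild type replicate 2 stood apart from the other arrays, with correlations across probes of 0.983 to 0.989 with them, where the other pairs had at least 0.99. All 12 neuron genes on the array and 11 of 12 genes of Schwann cells and satellite glia were above background on all 8 arrays. All 8 arrays shared 1 slide. P61S/R100E lay in slide columns 3, 2 and 3, P61S in columns 1, 2 and 1, and wild type in column 4 only, so wild type and its column cannot be told apart.

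The macrophage genes were present in all groups. Of the 34 members, 28 were well above background on all 8 arrays, among them Ptprc, Cd68, Aif1, Itgam, Csf1r, Adgre1, Spi1 and the 3 C1q genes. Cd4, a T cell co-receptor that rat macrophages also express, was above background on 7 arrays. The T cell receptor chain gene Cd3e, the haemoglobin scavenger receptor gene Cd163 and the class II gene RT1-Ba were above background on none. Mrc1, the mannose receptor gene, and the class II gene RT1-Da were so on 3 arrays, 1 in each group, and these 5 genes were not tested. Of other lymphocyte genes, 15 of 17 T, B and NK cell genes were on the array, and 4 of the 15 were above background nowhere. For neutrophil and mast cell genes 5 of 14 were above background nowhere. The median difference of the 9 lymphocyte genes tested was 0.02 between P61S/R100E and P61S, 0.01 between P61S/R100E and wild type and 0.12 between P61S and wild type, and that of the 7 neutrophil and mast cell genes -0.07, -0.16 and 0.15 in the same order. limma called 0 of either list, and 0 at an unadjusted p under 0.05.

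P61S/R100E was compared with P61S, which asks what the R100E change adds to a protein that carries P61S. Its arrays had the higher mean in 22 of the 29 tested members, where 46.5% of all 12148 tested genes had a positive difference. The median log2 difference of the members was 0.11, against -0.01 over all tested genes. No member passed the test. limma gave 0 of 29 members and 0 of 23585 probes (0%) past the adjusted threshold of 0.05, with 0.9995 as the smallest adjusted p of a member. At an unadjusted p under 0.05 there were 1 member higher and 0 lower, where 2.37% of all genes were higher and 2.30% lower, and over all probes there were 946. Over the alternatives the count of members higher ran from 0, with slide column as a covariate, to 6, with 0 lower each time. It was 6 without P61S/R100E replicate 2 (3.22% of all genes higher), 4 without wild type replicate 1 (3.02%) or without wild type replicate 2 (2.95%) and 2 without P61S replicate 1 (1.06%). The 3 P61S/R100E arrays lay above all 3 P61S arrays in 6 members, Trem2, Ptprc, Itgb2, Adgre1, Tlr4 and Gpnmb, and below them in 0, where 7.21% of all genes lay above and 8.48% below.

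P61S/R100E was then set against the wild type protein. It had the higher mean in 21 of 29 members (42.9% of all genes), with a median difference of 0.14, against -0.03 over all genes. limma called 0 of 29 members and 0% of all probes, with a smallest adjusted p among members of 0.713 for Trem2. At an unadjusted p under 0.05, 6 members were higher (Trem2, Itgb2, Laptm5, Ptprc, Lyz2 and Adgre1) and 0 lower, where 2.03% of all genes were higher and 3.15% lower, and over all probes there were 1188. Without wild type replicate 2 the unadjusted counts were 1 higher and 1 lower (1.12% and 1.00% of all genes), with 24 of 29 differences positive and a median of 0.16. They were 5 higher and 2 lower without wild type replicate 1, where 6.24% of all genes were higher and 18.1% lower. Without P61S/R100E replicate 2 they were 8 higher (2.30% of all genes). They were 3 higher without P61S/R100E replicate 1 (2.38%), without P61S/R100E replicate 3 (1.33%) or without P61S replicate 2 (1.96%), and 2 higher without P61S replicate 1 (1.37%) or without P61S replicate 3 (1.47%), with 0 lower in these 6 cases. Only 1 member was higher in a fit of the 2 groups compared (1.23% of all genes). The P61S/R100E arrays lay above both wild type arrays in 10 members and below both in 0, where 7.46% of all genes lay above and 8.73% below. With wild type replicate 1 alone as the comparison they lay above it in 15 members (51.7%) and below it in 1, where 19.5% of all genes lay above and 14.7% below.

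P61S was last compared with the wild type protein. P61S had the higher mean in 17 of 29 members (42.8% of all genes), with a median difference of 0.05, against -0.02 over all genes. limma called 0 members and 0% of all probes, with a smallest adjusted p among members of 0.999. At an unadjusted p under 0.05 there was 1 member higher, C1qc, and 0 lower, where 0.593% of all genes were higher and 1.13% lower, and over all probes there were 489. The count was 0 without P61S replicate 1 or without P61S replicate 3. Without wild type replicate 1 it was 2 higher and 3 lower, where 3.62% of all genes were higher and 13.4% lower. The 3 P61S arrays lay above both wild type arrays for C1qc, Lyz2, Laptm5 and Trem2 (8.40% of all genes) and below both for Fcgr2b (9.31% of all genes). With wild type replicate 1 alone as the comparison they lay above it in 11 members and below it in 8, where 32.5% of all genes lay above and 22.3% below. The comparisons share arrays, so their counts are not independent of each other.

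**Figure D1:**
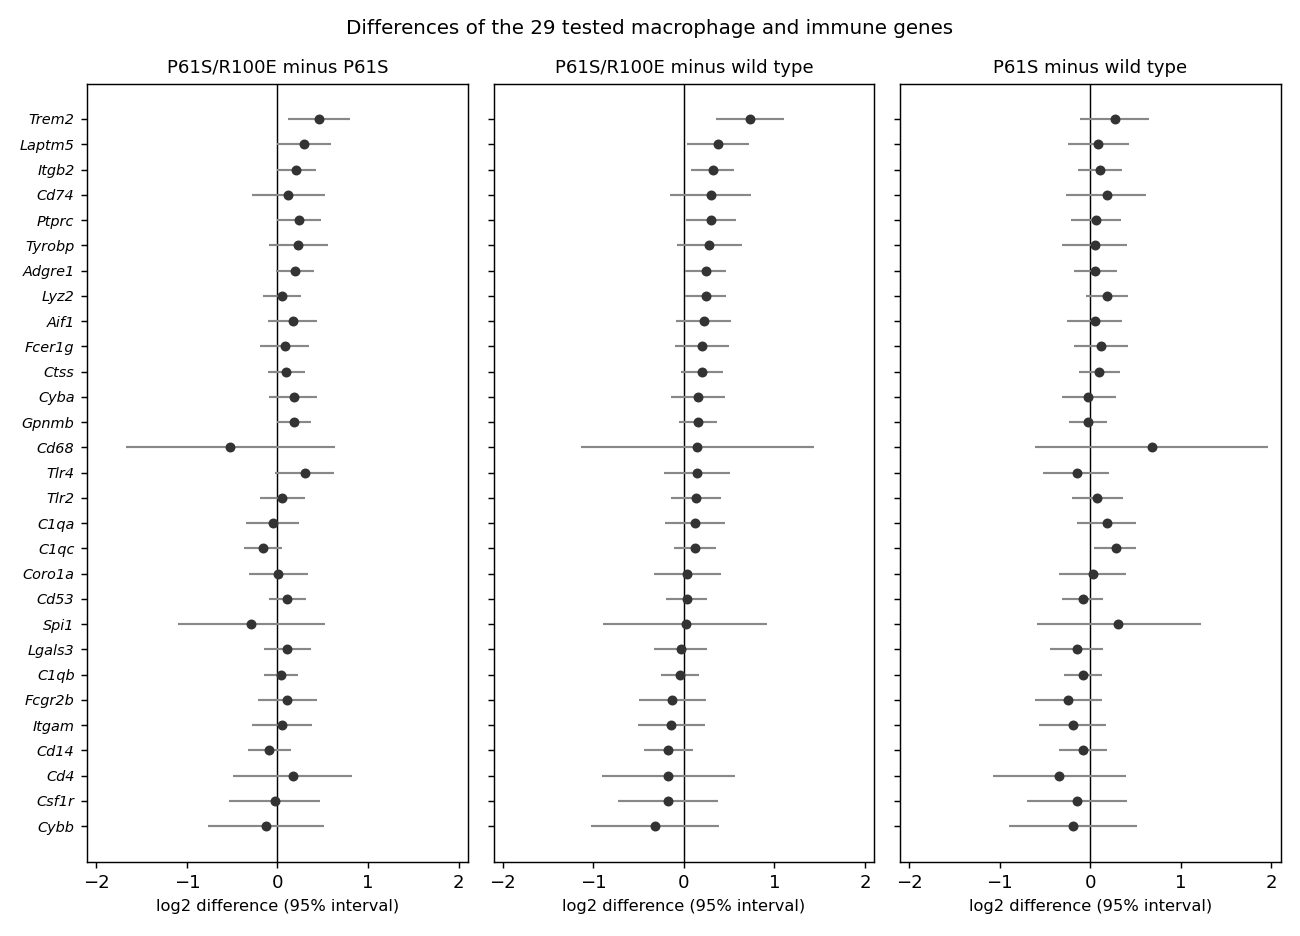
Log2 difference (x axis) of each of the 29 tested members (y axis) for P61S/R100E minus P61S, P61S/R100E minus wild type and P61S minus wild type, with 95% intervals from limma. Trem2 stands furthest to the right in the middle panel at 0.73, and the intervals of Cd68 and Spi1 are wide.

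The highest group mean was that of P61S/R100E in 17 of 29 members, of P61S in 4 and of wild type in 8, where P61S/R100E was highest in 30.6% of all genes, P61S in 25.7% and wild type in 43.7%. The full order P61S/R100E, P61S, wild type was found in 13 members, and the share of all genes with this order was not counted. Without wild type replicate 2, P61S/R100E was highest in 19 members, P61S in 6 and wild type in 4, where P61S/R100E was highest in 31.8% of all genes, P61S in 39.5% and wild type in 28.7%. No member passed limma in the main fit of any comparison. In RNA from a whole culture, the number of macrophages, the RNA per macrophage and RNA of these genes from other cells cannot be told apart.

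Among receptors and adaptors, Trem2, a lipid-sensing receptor of phagocytes, showed the widest separation of the groups. Its signal was -1.28, -1.35 and -0.92 on the P61S/R100E arrays, against -1.64, -1.63 and -1.65 on the P61S arrays and -1.74 and -2.09 on the wild type arrays. The groups did not overlap in any of the 3 comparisons, P61S/R100E replicate 3 was the highest array, and the P61S arrays lay within a few hundredths of each other. Trem2 differed by 0.46 between P61S/R100E and P61S (SE 0.143, 1.37-fold, 95% interval 0.12 to 0.80) and by 0.73 between P61S/R100E and wild type (SE 0.160, 1.66-fold, 95% interval 0.35 to 1.11). Neither passed in limma over all probes (adjusted p = 0.9995 and 0.713). P61S minus wild type was 0.27 (SE 0.160). The probe, A_42_P512838, has 1 spot per array. Without wild type replicate 1 the P61S/R100E difference from wild type was 0.91 and passed limma (adjusted p = 0.0487), with wild type replicate 2 as the lone wild type array and its spread assumed to be that of the other groups. In that fit 1283 probes passed, which is 5.37% of those tested, against 1 of the 29 members. Without wild type replicate 2 it was 0.55 (limma adjusted p = 1), and over all alternatives the limma adjusted p ran from 0.0487 to 1.

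Tyrobp encodes DAP12, the adaptor through which TREM2 signals. It stood at 0.55, 0.37 and 0.79 with P61S/R100E, against 0.42, 0.23 and 0.37 with P61S and 0.42 and 0.15 with wild type. The groups overlapped, since P61S replicate 1 and wild type replicate 1 lay above P61S/R100E replicate 2. The difference was 0.23 from P61S (SE 0.136) and 0.28 from wild type (SE 0.152). Fcer1g, the related adaptor of Fc receptors, stood at 0.05, 0.11 and 0.24 with P61S/R100E, against 0.02, 0.12 and 0.02 with P61S and 0.11 and -0.24 with wild type. Its groups overlapped as well, and its differences were 0.08 (SE 0.113) and 0.20 (SE 0.126), with 0.09 and 0.19 from a second probe. Fcgr2b, the inhibitory IgG receptor, gave -2.14, -2.54 and -2.30 with P61S/R100E, against -2.43, -2.46 and -2.41 with P61S and -2.38 and -2.01 with wild type. For this gene the brightest probe and a second one disagreed in sign against wild type, at -0.13 and 0.22 for P61S/R100E and at -0.24 and 0.13 for P61S, and with normexp the P61S/R100E value of the brightest probe was 0.05.

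**Figure D2:**
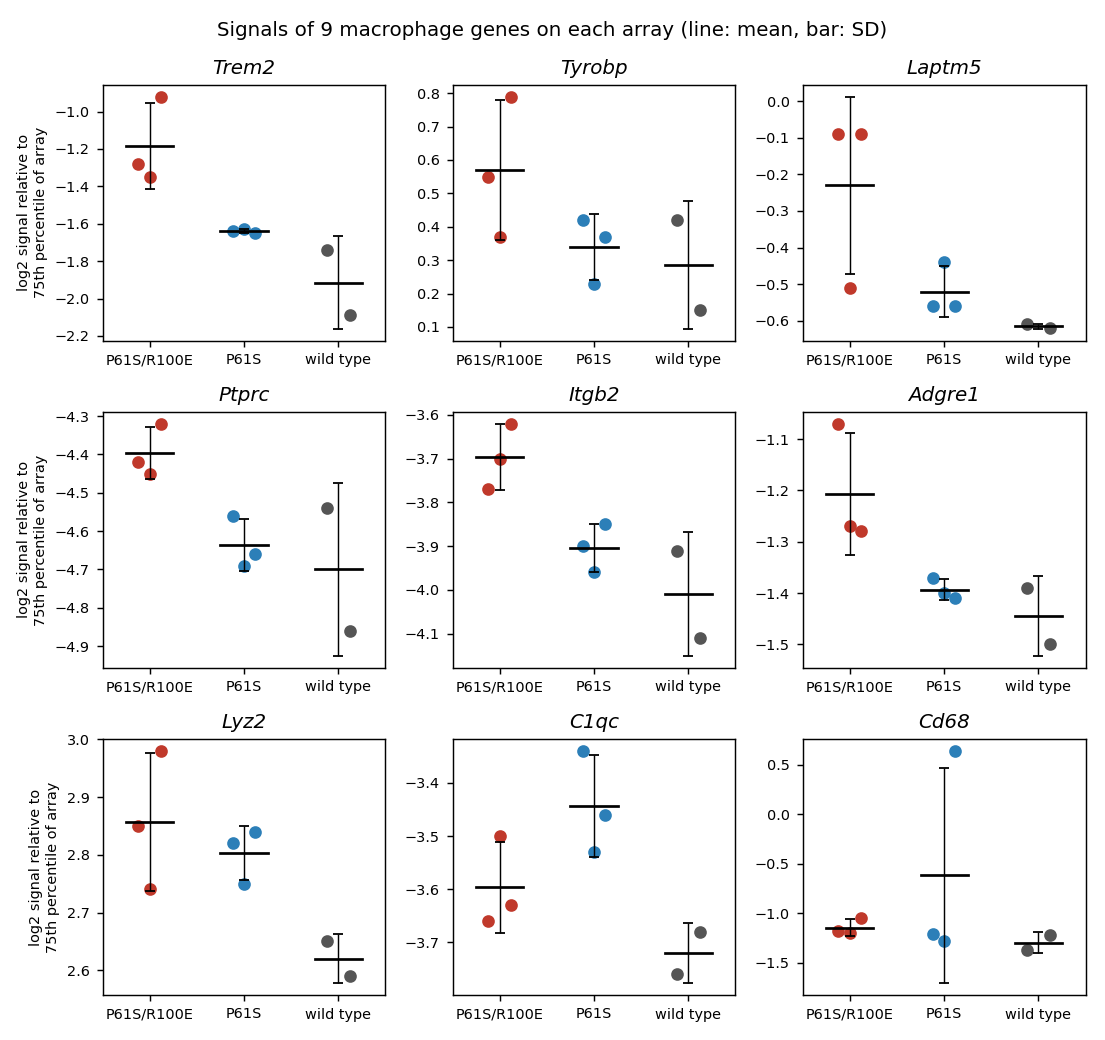
Log2 signal relative to the 75th percentile of the array (y axis) of 9 members by protein form (x axis). Each point is an array, the line is the group mean and the bar the SD, and the P61S/R100E points lie above all others for Trem2, Ptprc, Itgb2 and Adgre1.

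Genes found in all leukocytes, and the integrins of myeloid cells, lay on average above the other groups with P61S/R100E. All 6 of these genes had positive differences from P61S (median 0.16), and 5 of 6 from wild type (median 0.17). Laptm5, a lysosomal membrane protein of blood cells, gave -0.09, -0.51 and -0.09 with P61S/R100E, against -0.56, -0.44 and -0.56 with P61S and -0.61 and -0.62 with wild type. P61S/R100E replicate 2 lay among the P61S arrays, while all 3 P61S/R100E arrays lay above wild type. The difference was 0.29 from P61S (SE 0.128) and 0.38 from wild type (SE 0.143, 1.30-fold, limma adjusted p = 0.746).

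Ptprc, the pan-leukocyte phosphatase CD45, stood at -4.42, -4.45 and -4.32 with P61S/R100E, against -4.56, -4.69 and -4.66 with P61S and -4.54 and -4.86 with wild type. The P61S/R100E arrays were the 3 highest of the 8. The differences were 0.24 from P61S (SE 0.105) and 0.30 from wild type (SE 0.117, 1.23-fold, limma adjusted p = 0.746). A second Ptprc probe was above background on 5 arrays and was not tested. Itgb2, the CD18 chain shared by the leukocyte integrins, followed the same order. It stood at -3.77, -3.70 and -3.62 with P61S/R100E, against -3.90, -3.96 and -3.85 with P61S and -3.91 and -4.11 with wild type, again with P61S/R100E as the 3 highest arrays. Its differences were 0.20 from P61S (SE 0.0899) and 0.32 from wild type (SE 0.101, 1.24-fold, limma adjusted p = 0.746).

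The partner chain Itgam, CD11b, did not share that order. It gave -5.43, -5.55 and -5.58 with P61S/R100E, against -5.50, -5.58 and -5.63 with P61S and -5.64 and -5.12 with wild type, with wild type replicate 2 as the highest array. Its differences were 0.05 from P61S (SE 0.138) and -0.14 from wild type (SE 0.154), and the second was 0.01 after quantile normalization. Coro1a, an actin regulator of leukocytes, differed by 0.01 (SE 0.139) and 0.04 (SE 0.156), and the tetraspanin gene Cd53 by 0.11 (SE 0.0851) and 0.03 (SE 0.0952). The groups overlapped for both.

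Macrophage identity genes were mixed. Adgre1, which encodes the F4/80 receptor, stood at -1.07, -1.27 and -1.28 with P61S/R100E, against -1.37, -1.40 and -1.41 with P61S and -1.39 and -1.50 with wild type. The P61S/R100E arrays were the 3 highest. The differences were 0.19 from P61S (SE 0.0884) and 0.24 from wild type (SE 0.0988, 1.18-fold, limma adjusted p = 0.746). Aif1, the calcium-binding protein IBA1, gave 0.03, -0.31 and 0.05 with P61S/R100E, against -0.21, -0.32 and -0.20 with P61S and -0.27 and -0.31 with wild type. Only P61S/R100E replicates 1 and 3 stood above the rest. Its differences were 0.17 (SE 0.116) and 0.22 (SE 0.130), and a second probe gave 0.16 and 0.34.

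Csf1r, the receptor for colony-stimulating factor 1 and interleukin 34, showed no such order. It gave -4.77, -5.06 and -4.94 with P61S/R100E, against -4.92, -4.86 and -4.91 with P61S and -5.18 and -4.32 with wild type. The 2 wild type arrays were the lowest and the highest of the 8. The differences were -0.03 from P61S (SE 0.211) and -0.18 from wild type (SE 0.236), the first being 0.05 after quantile normalization, and a second probe gave -0.08 and -0.39.

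In Cd68 and Spi1 a single array set the P61S mean. Cd68, a lysosomal glycoprotein of macrophages, stood at -1.18, -1.20 and -1.05 with P61S/R100E, against -1.21, -1.28 and 0.64 with P61S and -1.37 and -1.22 with wild type. The scanner software had marked 1 of the 2 Cd68 spots of P61S replicate 3 as an outlier, and these spots read 0.64 and 0.20. The difference of P61S/R100E from P61S was -0.52 (SE 0.485), and 0.11 without P61S replicate 3. P61S minus wild type was 0.68 (SE 0.543), and 0.05 without that array. Spi1, which encodes PU.1, gave -5.61, -5.57 and -5.45 with P61S/R100E, against -5.50, -4.46 and -5.80 with P61S and -5.86 and -5.27 with wild type. Here P61S replicate 2 was the high array, and the difference of P61S/R100E from P61S was -0.29 (SE 0.342), and 0.10 without it. P61S minus wild type was 0.31 (SE 0.382), and -0.08 without P61S replicate 2.

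The C1q genes, whose chains form C1q, a part of the first component of complement, differed among themselves. C1qc stood at -3.66, -3.50 and -3.63 with P61S/R100E, against -3.34, -3.53 and -3.46 with P61S and -3.76 and -3.68 with wild type. Both mutants lay above wild type on every array, with P61S the highest group. P61S minus wild type was 0.28 (SE 0.0991, 1.21-fold, limma adjusted p = 0.999), P61S/R100E minus wild type 0.12 (SE 0.0991) and P61S/R100E minus P61S -0.16 (SE 0.0886). C1qa differed by -0.05 between P61S/R100E and P61S (SE 0.125) and by 0.12 between P61S/R100E and wild type (SE 0.139), with overlapping groups. C1qb differed by 0.04 (SE 0.0804) and -0.04 (SE 0.0899), and the second was 0.04 when arrays were centred on the median.

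Among sensors of microbial products, Tlr4 had the largest difference between P61S/R100E and P61S. Tlr4, the receptor for lipopolysaccharide, stood at -5.03, -5.26 and -5.17 with P61S/R100E, against -5.27, -5.56 and -5.52 with P61S and -5.10 and -5.49 with wild type. The P61S/R100E arrays lay above the P61S arrays by 0.30 on average (SE 0.138) and overlapped wild type (0.14, SE 0.154). Tlr2, a sensor of bacterial lipoproteins, differed by 0.05 (SE 0.105) and 0.13 (SE 0.118). Cd14, their co-receptor, differed by -0.09 (SE 0.101) and -0.17 (SE 0.113).

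For antigen presentation, Cd74, the invariant chain of class II molecules, gave -6.04, -5.60 and -5.48 with P61S/R100E, against -5.78, -5.82 and -5.89 with P61S and -6.19 and -5.82 with wild type. The groups overlapped. The difference of P61S/R100E from wild type was 0.30 (SE 0.188), and -0.27 in the authors' deposited log2 values. Ctss, the protease that trims the invariant chain, stood at -1.83, -1.65 and -1.73 with P61S/R100E, against -1.80, -1.92 and -1.77 with P61S and -1.97 and -1.90 with wild type. P61S/R100E lay above both wild type arrays, by 0.20 (SE 0.0959), and overlapped P61S (0.09, SE 0.0858).

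Lyz2, the lysozyme of myeloid cells, lay above wild type with both mutants. It stood at 2.85, 2.74 and 2.98 with P61S/R100E, against 2.82, 2.75 and 2.84 with P61S and 2.65 and 2.59 with wild type. P61S/R100E minus wild type was 0.24 (SE 0.0988, 1.18-fold, limma adjusted p = 0.746), P61S minus wild type 0.19 (SE 0.0988) and P61S/R100E minus P61S 0.05. Gpnmb, a glycoprotein of phagocytes that Schwann cells and other cells also make, gave 1.10, 0.98 and 1.16 with P61S/R100E, against 0.88, 0.93 and 0.88 with P61S and 0.95 and 0.89 with wild type. All 3 P61S/R100E arrays lay above the other 5, by 0.18 over P61S (SE 0.0795) and 0.16 over wild type (SE 0.0888).

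Lgals3, the galectin-3 gene, differed by 0.11 (SE 0.110) from P61S and -0.03 (SE 0.123) from wild type, and the second was 0.01 after quantile normalization. The subunits of the phagocyte oxidase differed from each other. Cyba differed by 0.18 (SE 0.111) and 0.16 (SE 0.124), and Cybb by -0.13 (SE 0.269) and -0.32 (SE 0.300), with wild type replicate 2 the highest Cybb array at -5.20. Cd4 stood at -6.12, -6.65 and -6.26 with P61S/R100E, against -6.51, -6.09 and -6.93 with P61S and -6.52 and -5.83 with wild type, and its groups overlapped.

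**Figure D3:**
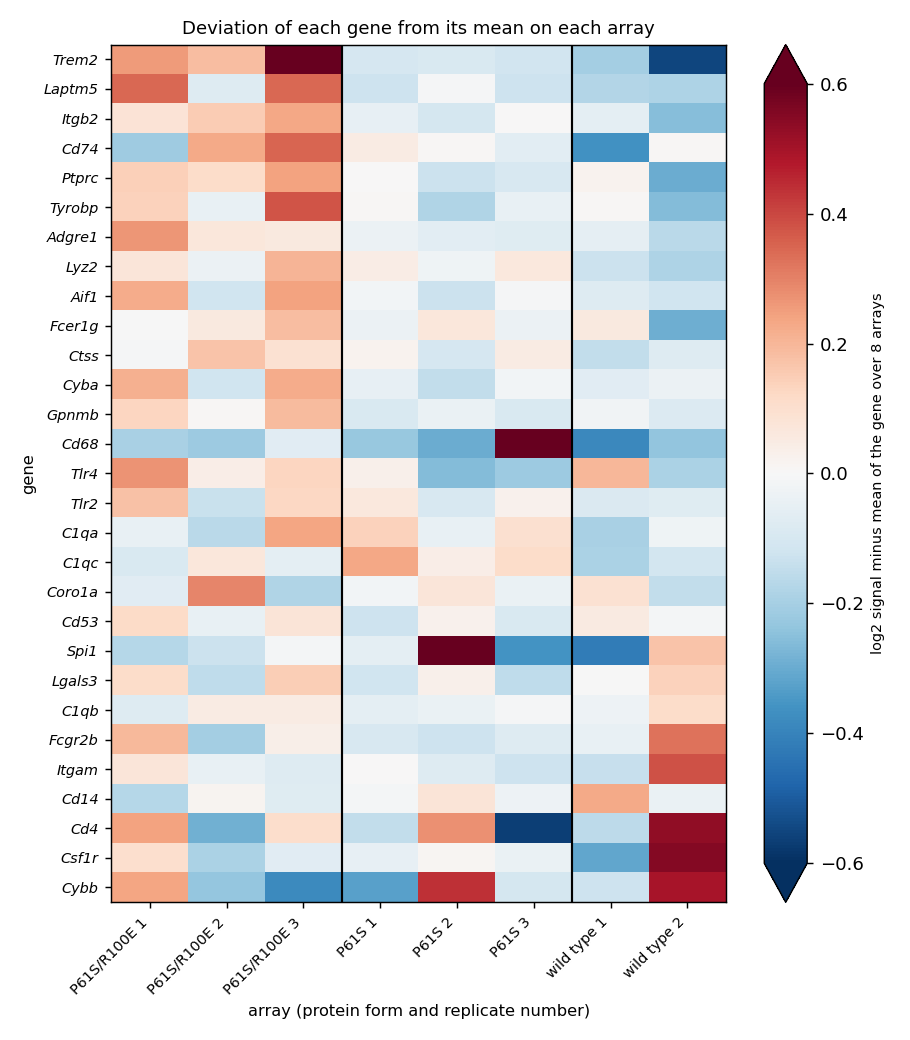
Deviation of each of the 29 tested members (rows) from its mean over the 8 arrays (columns, by protein form and replicate), in log2 units, with colours ending at -0.6 and 0.6. Rows are sorted by the difference of P61S/R100E from wild type, largest at the top, so opposite colours of these groups at top and bottom follow from the order. Red runs through the upper rows of P61S/R100E replicates 1 and 3, and wild type replicate 2 is blue in the upper rows and red in the lower ones.

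The P61S/R100E arrays differed among themselves too. The median deviation of the 29 members from their 8-array means was 0.11, -0.04 and 0.13 on the P61S/R100E arrays, against -0.04, -0.04 and -0.05 on the P61S arrays and -0.08 on both wild type arrays. P61S/R100E replicate 3 was the highest of all 8 arrays in 13 members, while replicate 2 was the lowest of its group in 17. Each wild type array was the lowest of the 8 in 8 members, and wild type replicate 2 was also the highest of the 8 in 6. The shares of all tested genes were not counted for these ranks, so they are not shown to be particular to the members. The spread between replicates of the members was like that of other genes, with a median pooled SD of 0.138, against 0.148 over all tested genes. The largest were 0.694 for Cd68, 0.484 for Spi1, 0.386 for Cd4, 0.375 for Cybb and 0.288 for Csf1r.

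Slide column was largely tied to protein form, since only column 2 held more than 1 form. P61S/R100E replicate 2 and P61S replicate 2 shared that column, with 1 array each. Within it 16 of 29 members had a positive difference, with a median of 0.02, against -0.06 over all genes. With 1 array of each form there, the array and the column cannot be told apart, and P61S/R100E replicate 2 was the lowest of its group in 17 members. Within column 2 Trem2 differed by 0.28, Itgb2 by 0.26, Ptprc by 0.24, Tlr4 by 0.30, Tyrobp by 0.14, Adgre1 by 0.13, Gpnmb by 0.05 and Laptm5 by -0.07. With the column as a linear covariate the median difference was 0.02 between P61S/R100E and P61S, and 10 of 29 members had the opposite sign to the main fit. It was 0.23 between P61S/R100E and wild type and 0.23 between P61S and wild type. The slope came only from P61S and P61S/R100E arrays in columns 1 to 3. Both 0.23 values are therefore extrapolated to column 4, which held only wild type. Within slide row 1 the median of P61S/R100E minus P61S was 0.16 and within row 2 it was 0.09, and the medians of P61S/R100E minus wild type were 0.16 and 0.11.

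Myeloid genes outside the list of members gave medians nearer to 0. Of 62 listed genes, 57 were on the array and 45 were tested, with a median difference of 0.04 between P61S/R100E and P61S (25 positive), 0.03 between P61S/R100E and wild type (27 positive) and 0.04 between P61S and wild type (28 positive). limma called 0 of 45 in each. At an unadjusted p under 0.05 there were 2 higher and 1 lower between P61S/R100E and P61S (2.37% and 2.30% of all genes). Against wild type, P61S/R100E had 3 higher and 1 lower (2.03% and 3.15%), and P61S had 1 higher and 0 lower (0.593% and 1.13%). Lcp1, the actin bundler L-plastin, differed by 0.35 between P61S/R100E and P61S (SE 0.114) and by 0.47 between P61S/R100E and wild type (SE 0.127). Lyve1, a hyaluronan receptor of lymphatic vessels and of a subset of resident macrophages, differed by -0.70 in both comparisons (SE 0.155 and 0.173). Of the 45 genes, 11 lay above both wild type arrays on all 3 P61S/R100E arrays and 2 lay below both (7.46% and 8.73% of all genes). Relative to the P61S arrays, 5 lay above and 2 below (7.21% and 8.48% of all genes). The difference between the lists was not tested.

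Genes for macrophage survival factors and clearance signals, which neurons and other cells also make, were tested in 15 of 16 cases. limma called 0. At an unadjusted p under 0.05 there were 1 higher and 1 lower against P61S (2.37% and 2.30% of all genes) and none against wild type. Csf1, a ligand of CSF1R, stood at 1.26, 1.39 and 1.34 with P61S/R100E, against 1.37, 1.23 and 1.38 with P61S and 1.40 and 1.22 with wild type, so the groups overlapped. Il34, the other ligand, differed by -0.28 between P61S/R100E and P61S (SE 0.272). Sirpa, the phagocyte receptor that neurons also express, stood at 0.49, 0.40 and 0.29 with P61S/R100E, against 0.05, 0.15 and 0.03 with P61S and 0.27 and 0.04 with wild type. All 3 P61S/R100E arrays lay above the others, by 0.31 over P61S (SE 0.0977) and 0.23 over wild type (SE 0.109). Cd47, its ligand and a signal against engulfment, stood at 1.60, 1.60 and 1.59 with P61S/R100E, against 1.76, 1.75 and 1.79 with P61S and 1.76 and 1.67 with wild type. The P61S/R100E arrays were the 3 lowest, by -0.17 relative to P61S (SE 0.0700) and -0.12 relative to wild type (SE 0.0783). The macrophage attractants Ccl2 (0.07, SE 0.0859) and Cx3cl1 (0.17, SE 0.0993) did not pass between P61S/R100E and P61S.

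Markers of the other cells of the culture moved as follows beside the members. Between P61S/R100E and P61S the median difference was 0.02 for 12 neuron genes, 0.00 for 12 genes of Schwann cells and satellite glia, -0.10 for 8 endothelial and mural genes and 0.15 for 9 fibroblast genes, of which 9 of 9 had a positive difference. Against wild type the medians were -0.07, -0.07, -0.04 and 0.08 in the same order. The fibroblast genes had median deviations of 0.18, -0.06 and 0.14 on the P61S/R100E arrays, against -0.11, -0.03 and -0.07 on the P61S arrays and 0.03 and -0.02 on the wild type arrays, so replicates 1 and 3 of P61S/R100E were high for fibroblast genes as for macrophage genes. limma called 0 genes of any of these lists, and their part in the macrophage values was not tested.

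**Figure D4:**
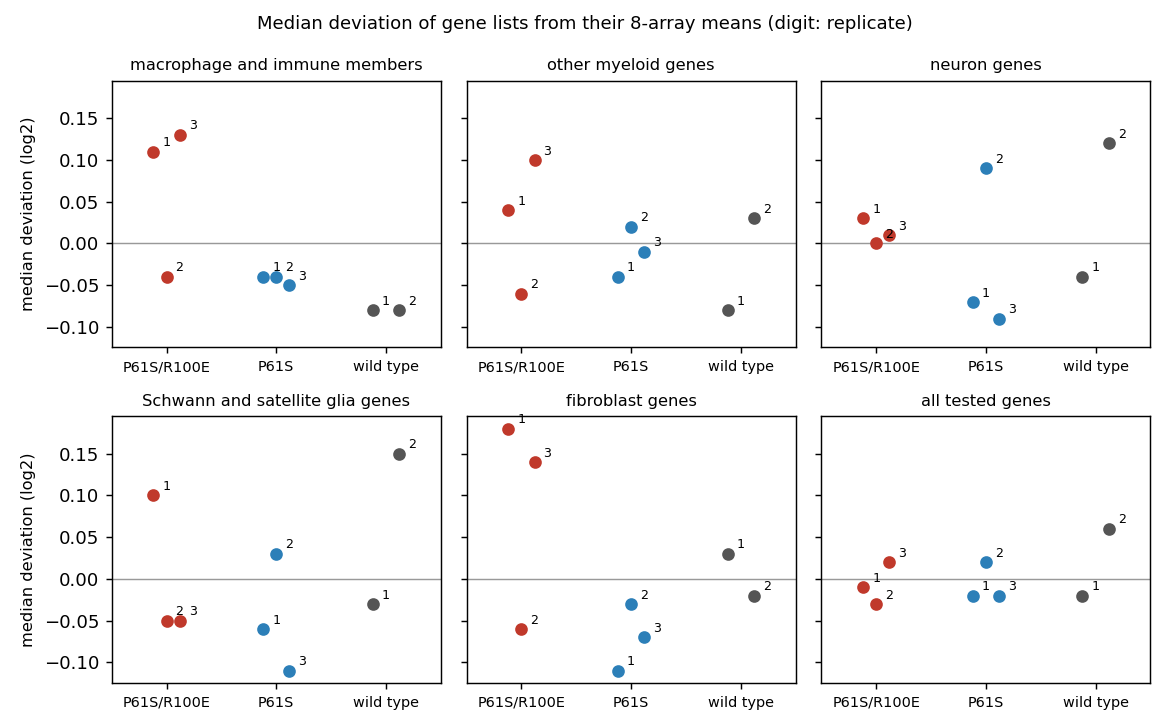
Median deviation of gene lists from their 8-array means, in log2 units (y axis), on each array by protein form (x axis, digits give the replicate). The macrophage and fibroblast panels share high P61S/R100E replicates 1 and 3 and a lower replicate 2, while the panel of all tested genes stays between -0.03 and 0.06.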

How the data were processed

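Polyadenylated RNA was labelled with Cy3 and hybridised to 8 one-colour Agilent arrays, per the labels' protocols, which also discarded samples whose RNA integrity number was below 8.0. The deposited scanner exports hold spot intensity from Feature Extraction 10.7.3.1, background-subtracted per the file headers. The authors' deposited log2 table (22018 probes, medians 9.82 to 10.33, not normalized between arrays) was an alternative.

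From the intensities, log2 values were centred on the 75th percentile of each array. Spots of a probe were averaged without those marked as outliers. Probes were named by RefSeq accession through the GRCr8 table; the array was designed on rn4, so no probe coordinates are given. In 1 limma fit (limma 3.58.1, R 4.3.3) of 8 arrays with 3 group means, 23585 probes were tested, with Benjamini-Hochberg adjustment at 0.05 and two-sided tests. The fit was tested on simulated data. All 34 members could be named; of the other lists, at most 2 genes per direction and comparison with the smallest p, and any survival or clearance gene. Some items that these rules take are not reported here. The members and lists were chosen with earlier results of these data known. Replicate numbers showed no pairing of P61S/R100E with P61S arrays (correlations of deviations 0.0508, -0.021 and 0.0081 for the same number). For the same number the correlations were 0.104 and 0.167 between P61S and wild type. Between P61S/R100E and wild type they were -0.158 and -0.198. With 2 wild type arrays the deviations of that group mirror each other, so the wild type values cannot settle pairing.

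Alternatives changed the background correction (normexp, offset 50, on median spot signals), normalization, centring, source of values, filter, probe choice, variance model, threshold, blocks, arrays in the fit and each left-out array.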

Additional observations from a re-analysis of the deposited data

How the results depend on the processing

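No member passed an adjusted p of 0.05 in limma under any alternative except Trem2 between P61S/R100E and wild type without wild type replicate 1, so the count of members called ran from 0 to 1 over left-out arrays there and was 0 in the other comparisons. Over all probes, the call count between P61S/R100E and P61S was 1 with the deposited log2 values, 1 with probes above background on all arrays, 6 with a variance trend and robust fit and 1 at an adjusted p under 0.10. Between P61S/R100E and wild type it was 1 under each of these 4, under normexp and under quantile normalization, and between P61S and wild type it was 1 under normexp and under quantile normalization. Without each array in turn it ran from 0 to 3 between P61S/R100E and P61S, from 0 to 1283 between P61S/R100E and wild type and from 0 to 298 between P61S and wild type, the highest of the last 2 being without wild type replicate 1, which leaves wild type replicate 2 alone. The median difference of the members ran from 0.08 to 0.15, 0.12 to 0.20 and 0.01 to 0.07 over left-out arrays in that order. It was 0.02, 0.23 and 0.23 with slide column as a linear covariate, the last 2 being extrapolated to the column of wild type. The median difference was 0.22 between P61S/R100E and wild type and 0.11 between P61S and wild type when arrays were centred on the median. With the replicate number as a block, the medians were 0.11, 0.13 and 0.05, 0 members were called, and the members higher than wild type with P61S/R100E at an unadjusted p under 0.05 were 1 instead of 6. Without wild type replicate 2, 9 of 29 members changed sign in each comparison with wild type. Causes of these shifts were not tested. Signal over background limits Cd3e, Cd163, RT1-Ba, RT1-Da and Mrc1, for which no difference can be given.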
